A study of Mus musculus with 9 samples.

Results

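Granzymes are the serine proteases, and perforin the pore-forming protein, that natural killer (NK) cells keep in their lytic granules. The genes described here are Gzma, Gzmb, Gzmc, Gzmd, Gzme, Gzmf, Gzmg, Gzmk, Gzmm and the perforin gene Prf1, chosen by symbol. All 10 were found among the 16876 genes of the count table, and 9 passed the filter on low counts. Gzmm did not pass it, at 1 to 7 counts per library. Poly-A RNA had been sequenced from NK cells grown out of the bone marrow of C57BL/6 mice, first for 4 days with IL-15 at 50 ng/mL, SCF at 30 ng/mL, Flt3L at 10 ng/mL and IL-7 at 1 ng/mL, then for a further week with IL-2 at 20 ng/mL beside the same dose of IL-15. There were 3 libraries in each of 3 groups. Ctrl cells were untreated. TGFb cells had TGF-β1 at 5 ng/mL for 3 h. SIS3_TGFb cells had SIS3, an inhibitor of the signal carrier Smad3, at 10 µM for 3 h and then TGF-β1 at 5 ng/mL for 3 h. All groups shared the cytokines of the culture, which include IL-2 and IL-15. In the third group the titles give only SIS3, and the text on treatment adds TGF-β1. No group had SIS3 without TGF-β1, and the labels name no solvent control. The labels do not say whether replicates were separate mice or cultures, so p-values cover no more than the spread among these 9 libraries.

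Perforin opens the target cell membrane to granzymes, which then cleave proteins inside the target. Granzyme B cuts after aspartate and activates caspases and Bid, granzymes A and K cut after basic residues, and granzyme M prefers methionine or leucine. Granzymes C to G are a rodent expansion next to Gzmb, and human cells lack them. IL-2 and IL-15 are known to raise granzyme and perforin transcripts in NK cells, and TGF-β to restrain NK cell killing.

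The libraries held 15714973 to 16718673 expected counts, and levels are given as CPM, which relates counts to library size after scaling by TMM factors (0.956 to 1.05). Defining NK markers were present (Klrb1c at 149.8 to 201.9 CPM, Eomes at 361 to 556), except Itga2, which reached at most 1.26 CPM. Summed over 14 NK markers, levels were 4854 to 5048 CPM in Ctrl, 4375 to 4555 in TGFb and 3813 to 3895 in SIS3_TGFb libraries, and 7 of the 14 fell with TGF-β1 and 0 rose (50%, where 34.3% of all genes passed). In SIS3_TGFb versus TGFb 5 of them rose and 5 fell (71.4%, against 41.8% of all genes). T cell markers summed to 296 to 311, 285 to 299 and 209 to 227 CPM in the same order, most of it Cd28, while Cd3e stayed at or below 2.52 CPM and Cd8a at or below 5.17. Mast cell and basophil markers summed to 614 to 638, 575 to 642 and 555 to 653 CPM. Kit was the highest on average over the 9 libraries (167 to 273 CPM), but Mcpt8 (169 to 257) lay above it in every Ctrl library. Cma1 was at 96.1 to 129 CPM and Fcer1a at or below 2.89. Markers of macrophages and monocytes, with Lyz2 the most abundant, reached 880.3 to 1185, 622 to 994 and 703 to 1195 CPM, and dendritic cell markers, led by Cd74, 555 to 780.2, 442 to 704 and 495 to 868. Neutrophil and promyelocyte markers summed to 258 to 298, 234 to 248 and 220.4 to 233 CPM, led by Ctsg, with 6 of 9 below 1 CPM in every library, as were all 5 B cell markers. The part of these cells in the results below was not tested. In these bulk libraries, fewer cells of a type and less RNA per cell cannot be told apart.

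TGFb replicate 3 was the highest TGFb library for 8 of the 9 tested members, all but Gzmk. It also held the smallest total and the lowest TMM factor (0.956). Of markers that reached 1 CPM in a TGFb library, it had the lowest value of the 3 for 8 of 8 of macrophages and monocytes (summed level 622 CPM, against 813 and 994 in TGFb replicates 1 and 2), 4 of 5 of dendritic cells (442 against 585 and 704), 7 of 8 of T cells (287 against 299 and 285), 6 of 9 of mast cells and basophils (591 against 642 and 575) and 6 of 13 of NK cells (4555 against 4404 and 4375). Their part in the member values was not tested. Values of TGFb versus Ctrl and SIS3_TGFb versus TGFb that lose or gain a call, turn their sign or move by over 1.5 times without this library are given with the member.

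Gzmb, Gzmc, Gzmf, Gzmg, Gzmd and Gzme lie in this order within 144.7 kb of chromosome 14, all on the minus strand (RefSeq positions, GRCm38.p6). Gzmb is at chr14:56258836-56262334, Gzmc at chr14:56231397-56241647, Gzmf at chr14:56205263-56211407, Gzmg at chr14:56156581-56159579, Gzmd at chr14:56129556-56132603 and Gzme at chr14:56117619-56120625, and Gzmn lies between Gzmf and Gzmg. Gzma (chr13:113093824-113100981) and Gzmk (chr13:113171630-113180965) neighbour each other on chromosome 13, minus strand. Prf1 (chr10:61297751-61304684) and Gzmm (chr10:79689020-79695261) are far apart on chromosome 10, plus strand. Gzma lies within the span of Cdc20b, which held 1 to 6 counts per library, and no other counted gene overlapped a member.

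RefSeq promoters (GRCm38.p6, 250 bases before to 50 after the start of transcription) were found for all 10 members. Those of the members with the largest log2 changes in TGFb versus Ctrl (Gzmb, -0.56) and SIS3_TGFb versus TGFb (Gzme, -0.81) are included below. Promoters are shown for some of the members. These are Gzmb (chr14:56262285-56262584, minus strand), Prf1 (chr10:61297586-61297885, plus strand), Gzma (chr13:113100932-113101231, minus strand), and the near-identical pair Gzmd (chr14:56132544-56132843, minus strand) and Gzme (chr14:56120576-56120875, minus strand) with Gzmf (chr14:56211358-56211657, minus strand). Each reads 5′ to 3′ on the strand of its gene. Capitals mark, on either strand, the motifs searched for RUNX factors (TGTGGT), T-box factors (AGGTGT), CREB and ATF factors (the CRE, TGACGTCA) and AP-1 (TGANTCA).
Gzmb: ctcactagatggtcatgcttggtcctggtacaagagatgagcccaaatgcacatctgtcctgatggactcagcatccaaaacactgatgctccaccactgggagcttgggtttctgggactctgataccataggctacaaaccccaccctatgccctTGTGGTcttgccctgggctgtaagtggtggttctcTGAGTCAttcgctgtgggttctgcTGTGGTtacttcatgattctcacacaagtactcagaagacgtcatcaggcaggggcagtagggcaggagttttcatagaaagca
Prf1: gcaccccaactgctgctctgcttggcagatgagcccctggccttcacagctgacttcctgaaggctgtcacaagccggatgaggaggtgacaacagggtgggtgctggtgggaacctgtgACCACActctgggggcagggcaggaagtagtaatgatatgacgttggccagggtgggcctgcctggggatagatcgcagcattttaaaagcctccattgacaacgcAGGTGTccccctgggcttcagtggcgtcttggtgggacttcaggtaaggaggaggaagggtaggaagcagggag
Gzma: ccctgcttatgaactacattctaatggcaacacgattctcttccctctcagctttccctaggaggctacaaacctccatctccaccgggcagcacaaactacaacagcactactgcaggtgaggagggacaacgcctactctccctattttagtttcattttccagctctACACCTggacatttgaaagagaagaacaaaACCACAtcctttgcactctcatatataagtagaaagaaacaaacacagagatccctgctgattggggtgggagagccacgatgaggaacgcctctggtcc
Gzmd: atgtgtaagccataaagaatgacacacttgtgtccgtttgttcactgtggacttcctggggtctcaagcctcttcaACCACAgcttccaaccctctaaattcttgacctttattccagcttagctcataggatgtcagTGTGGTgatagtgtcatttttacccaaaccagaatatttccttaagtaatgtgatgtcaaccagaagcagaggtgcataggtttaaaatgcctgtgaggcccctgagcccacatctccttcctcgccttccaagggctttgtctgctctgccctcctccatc
Gzme: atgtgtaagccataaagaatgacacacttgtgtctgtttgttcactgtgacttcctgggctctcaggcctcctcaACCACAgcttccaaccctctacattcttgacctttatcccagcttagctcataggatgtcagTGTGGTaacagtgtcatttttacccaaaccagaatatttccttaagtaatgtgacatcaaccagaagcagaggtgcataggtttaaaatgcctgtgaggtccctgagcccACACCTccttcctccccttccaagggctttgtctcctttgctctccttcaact
Gzmf: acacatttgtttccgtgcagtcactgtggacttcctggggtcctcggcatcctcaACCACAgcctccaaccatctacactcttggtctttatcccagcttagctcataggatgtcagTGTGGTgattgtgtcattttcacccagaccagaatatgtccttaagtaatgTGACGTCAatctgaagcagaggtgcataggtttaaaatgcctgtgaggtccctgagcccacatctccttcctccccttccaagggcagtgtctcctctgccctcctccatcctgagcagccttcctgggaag

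The RUNX letters stood in the promoters of 9 members, all but Gzmk, against 16.8% of the 32851 promoters of this length in the RefSeq table. Those of Gzmc to Gzmg are not independent examples, since their promoters were 73.5% to 93.4% identical in pairwise alignment. Gzmd and Gzme were the most alike, with RUNX letters starting 174 and 112 bases upstream in Gzmd and 175 and 113 in Gzme. The CRE stood in Gzmc, Gzmf and Gzmg, 57 to 82 bases upstream, and in 1.79% of all promoters. AP-1 letters stood in Gzmb alone among the members (7.81% of all promoters), 58 bases upstream. T-box letters stood in Gzma, Gzmc, Gzme, Gzmk and Prf1 (13.7%). Of the letters known for SMAD proteins, CAGACA stood in Gzmd, Gzme and Gzmg (21.0%), and GTCTAGAC (0.213%) and GGCGCC (11.9%) in 0 members. STAT letters (TTCNNNGAA, 8.30%) stood in Gzmb and Gzmm, IRF letters (GAAANNGAA, 8.56%) in Gzma, ETS letters (CCGGAA, 14.9%) in Gzmk and the E-box (CACGTG, 7.15%) in Gzmm. CACGTG and the CRE read the same on both strands. A match describes letters only, and binding was not measured.

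In untreated cells 8 of the 10 members were among the most abundant genes, at ranks 2 to 30 by count, and Gzmk and Gzmm were scarce. Together the 10 took 7.63% ± 0.239 of the counts in Ctrl libraries (SD, n = 3), 6.72% ± 0.348 in TGFb and 6.08% ± 0.12 in SIS3_TGFb libraries. By count Gzmg ranked 2 to 3 and Gzmd 3 to 4 among all genes in every library. Per kb of the longest coding transcript of the GENCODE M21 annotation, the order in Ctrl was Gzmg (23016 ± 1207 CPM per kb), Gzmd (19867 ± 619), Gzmf (8425 ± 629.9), Gzme (7438 ± 382), Gzmc (6295 ± 294), Gzmb (5765 ± 249), Prf1 (2524 ± 65.2), Gzma (2209 ± 30.1) and Gzmk (8.59 ± 1.32). Only Gzmc and Gzmb, as neighbours in that order, overlapped between libraries. Gzme stood above Gzmc and Gzmb in Ctrl, just below Gzmc in TGFb, where they overlapped, and below both in SIS3_TGFb. Prf1 and Gzma overlapped in both treated groups, and Gzmb and Gzmc in SIS3_TGFb libraries. With the shortest coding transcripts instead, Prf1 lay above Gzma in each group. Gzmm held 4, 2, 4 counts in the Ctrl replicates, 6, 2, 1 in the TGFb and 7, 1, 4 in the SIS3_TGFb replicates, too few for a fold or a test.

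**Figure D1:**
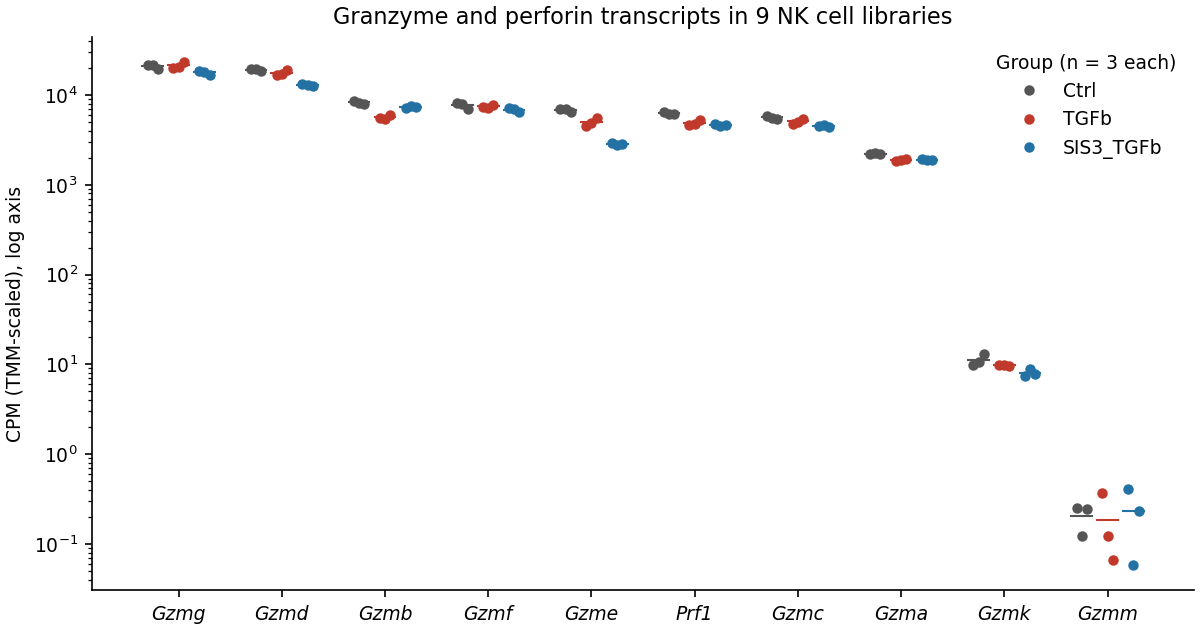
TMM-scaled CPM (log axis) of the 10 genes in each of the 9 libraries, replicates 1 to 3 from left to right within a group, with lines at group means. Gzmg and Gzmd lie highest, Gzme steps down from Ctrl to TGFb to SIS3_TGFb, Gzmb is lowest in TGFb, and Gzmm is close to the floor with 1 to 7 counts.

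Gzmb, Gzme, Prf1, Gzma and Gzmc fell with TGF-β1. With SIS3 before TGF-β1, Gzmb was higher and Gzme, Gzmd, Gzmg and Gzmc were lower than with TGF-β1 alone. In TGFb versus Ctrl, 5 of the 9 tested members fell, 0 rose and 4 did not pass (adjusted p below 0.05, edgeR quasi-likelihood test). Of all 12212 genes tested there, 34.3% passed and 16.4% fell. The members' median log2 change was -0.20, against -0.0036 over all genes. Libraries of the groups did not overlap for 4 members and for 45% of all genes. In SIS3_TGFb versus TGFb, where 41.8% of all genes passed (21.2% rose, 20.6% fell), 1 member rose and 4 fell, with a median of -0.17 against 0.012. Libraries did not overlap there for 7 members and 51.4% of all genes. In SIS3_TGFb versus Ctrl, where 53.9% of all genes passed (29% rose, 24.9% fell), all 9 tested members fell, with a median of -0.32 against 0.020. There 8 members and 61.1% of all genes had libraries that did not overlap. These comparisons share libraries in pairs, so their values are given side by side and not as independent results. Gzmc to Gzmg are also close copies, and the members were chosen with earlier results of these data known, so they are no independent examples. All tested members but Gzmk had high counts, at which a change as small as -0.15 passed (Gzmc in TGFb versus Ctrl). The split of all calls moved with the scaling. In TGFb versus Ctrl it was 2186 rises to 2004 falls with TMM and 1807 to 2568 with upper-quartile factors. With no scaling factors it went from 2585 and 2519 to 3690 and 1501 in SIS3_TGFb versus TGFb, and from 3542 and 3043 to 4222 and 2395 in SIS3_TGFb versus Ctrl.

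**Figure D2:**
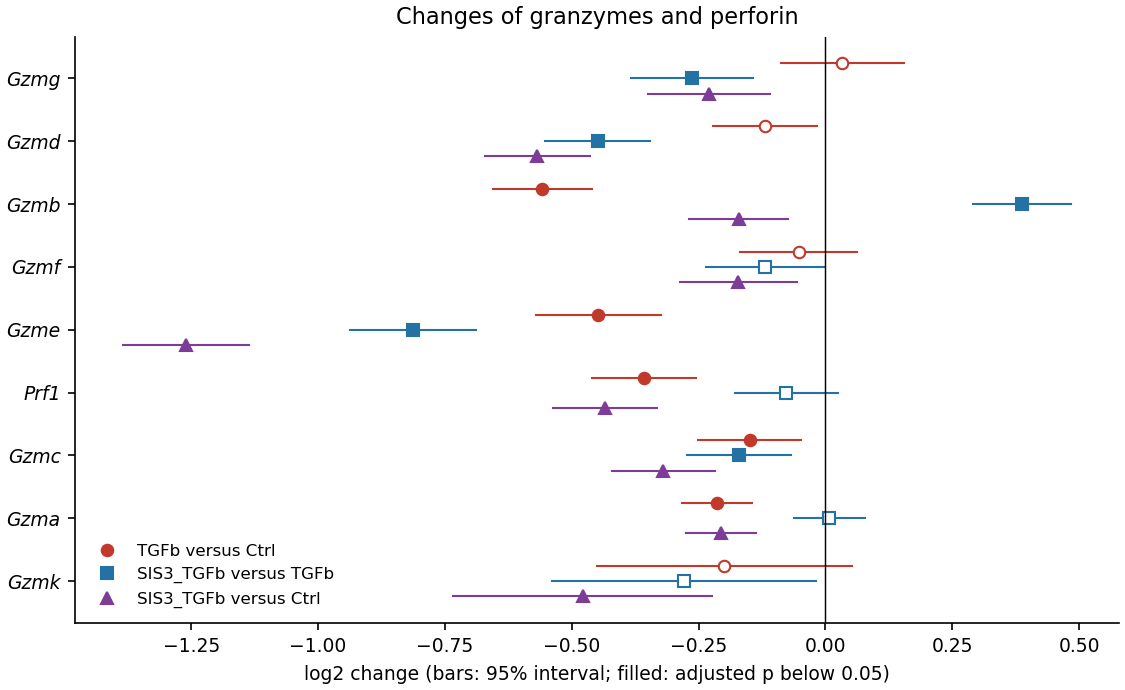
The log2 change (x axis) of each of the 9 tested members (y axis) in the 3 comparisons, with 95% intervals, filled where the adjusted p was below 0.05. All 9 lie below 0 in SIS3_TGFb versus Ctrl, Gzme farthest at -1.26, and Gzmb alone lies clearly above 0 in SIS3_TGFb versus TGFb, at 0.39.

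Gzmb, the aspartate-cutting granzyme, was lower with TGF-β1 alone than in Ctrl. With SIS3 before TGF-β1 it lay between those levels. It stood at 8689, 8113 and 8032 CPM in Ctrl replicates 1, 2 and 3, 5517, 5376 and 5972 CPM in the TGFb replicates and 7105, 7577 and 7376 CPM in the SIS3_TGFb replicates. Every TGFb library lay below every library of the other groups, and every SIS3_TGFb library lay below every Ctrl library. Gzmb was 32.1% lower in TGFb than in Ctrl (log2 change -0.56 ± 0.0457 (SE), adjusted p = 8.27e-08). It was 30.8% higher in SIS3_TGFb than in TGFb (0.39 ± 0.0456 (SE), adjusted p = 6.77e-06) and still 11.2% lower than in Ctrl (-0.17 ± 0.0456 (SE), adjusted p = 0.0049), a difference that was -0.11 without scaling factors. Its rank by count went from 5 in Ctrl to 10 in TGFb and to 5 or 6 in SIS3_TGFb libraries. Its transcript was 45.4% to 47.5% identical to those of Gzmc to Gzmg in an alignment that counts gaps as differences. The Gzmb transcript is 1436 bases long against 894 to 964 for the others, and this difference by itself lowers that identity.

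Prf1, the pore former, fell with TGF-β1 and did not pass the test between SIS3_TGFb and TGFb. Its levels were 6423, 6199 and 6109.7 CPM in Ctrl replicates 1, 2 and 3, 4596, 4718 and 5309.9 CPM in the TGFb replicates and 4728, 4511 and 4624 CPM in the SIS3_TGFb replicates. The Ctrl libraries lay above all 6 others, and the TGFb and SIS3_TGFb libraries overlapped. Prf1 was 21.9% lower in TGFb than in Ctrl (log2 change -0.36 ± 0.048 (SE), adjusted p = 2.20e-05). SIS3_TGFb differed from TGFb by -0.08 ± 0.048 (SE), adjusted p = 0.219, with a 95% interval of -0.18 to 0.03 that leaves out a recovery as large as its fall, and from Ctrl by -0.43 ± 0.048 (SE), adjusted p = 1.47e-06. Without TGFb replicate 3 the difference from TGFb was -0.01 and without TGFb replicate 1 it was -0.12, and neither passed. It reversed its sign without scaling factors (0.0079), and did not pass there either.

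Gzma, the abundant tryptase of the pair on chromosome 13, also fell with TGF-β1 and did not pass the test between SIS3_TGFb and TGFb. It was measured at 2183, 2235 and 2183 CPM in Ctrl replicates 1, 2 and 3, 1857, 1897 and 1939 CPM in the TGFb replicates and 1914, 1903 and 1905 CPM in the SIS3_TGFb replicates. Ctrl libraries lay above all others, and those of the other groups overlapped. TGFb lay 13.8% below Ctrl (log2 change -0.21 ± 0.0326 (SE), adjusted p = 7.95e-05) and SIS3_TGFb 13.3% below Ctrl (-0.21 ± 0.0326 (SE), adjusted p = 6.39e-05). SIS3_TGFb versus TGFb gave 0.01 ± 0.0326 (SE), adjusted p = 0.871, with an interval of -0.06 to 0.08. Its sign turned with size factors of DESeq2 and without TGFb replicate 1, it was 0.02 without TGFb replicate 3, and without scaling factors Gzma passed as higher (0.09, adjusted p = 0.0131).

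Gzmk, its scarce neighbour and a tryptase as well, fell only in the comparison of SIS3_TGFb with Ctrl. The values were 9.9, 10.5 and 13.1 CPM in Ctrl replicates 1, 2 and 3, 9.73, 9.94 and 9.59 CPM in the TGFb replicates and 7.38, 8.95 and 7.78 CPM in the SIS3_TGFb replicates. The SIS3_TGFb libraries were the lowest, and the TGFb libraries lay within or just below the range of Ctrl. SIS3_TGFb versus Ctrl gave a log2 change of -0.48 ± 0.12 (SE), adjusted p = 0.0032. TGFb versus Ctrl gave -0.20 ± 0.118 (SE), adjusted p = 0.216 and SIS3_TGFb versus TGFb -0.28 ± 0.122 (SE), adjusted p = 0.0803, which passed without SIS3_TGFb replicate 2 (-0.36, adjusted p = 0.0492).

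Gzme had the largest fall of the members in SIS3_TGFb versus TGFb and also fell in TGFb versus Ctrl. It stood at 6983, 7046 and 6411 CPM in Ctrl replicates 1, 2 and 3, 4564, 4898 and 5524 CPM in the TGFb replicates and 2926, 2767 and 2841 CPM in the SIS3_TGFb replicates. The 3 groups did not overlap, with Ctrl highest and SIS3_TGFb lowest. Gzme was 26.7% lower in TGFb than in Ctrl (log2 change -0.45 ± 0.0578 (SE), adjusted p = 1.43e-05), and 43.1% lower in SIS3_TGFb than in TGFb (-0.81 ± 0.0581 (SE), adjusted p = 3.67e-08). Against Ctrl, SIS3_TGFb was 58.2% lower (-1.26 ± 0.0586 (SE), adjusted p = 5.64e-11), a change below which 1.06% of all tested genes lay. Without TGFb replicate 3, TGFb versus Ctrl gave -0.53 and SIS3_TGFb versus TGFb -0.73.

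Gzmd, whose transcript is 90.0% identical to that of Gzme, fell with SIS3 and was at the edge of the test with TGF-β1. Its libraries read 19292, 19666 and 18498 CPM in Ctrl replicates 1, 2 and 3, 16703, 17183 and 19029 CPM in the TGFb replicates and 13423, 12841 and 12496 CPM in the SIS3_TGFb replicates. All SIS3_TGFb libraries lay below the rest, and TGFb replicate 3 lay within the Ctrl range. SIS3_TGFb versus TGFb gave -0.45 ± 0.0485 (SE), adjusted p = 2.78e-06, and SIS3_TGFb versus Ctrl -0.57 ± 0.0485 (SE), adjusted p = 7.69e-08. TGFb versus Ctrl gave -0.12 ± 0.0484 (SE), adjusted p = 0.0711, which did not pass. It passed without TGFb replicate 3 (-0.18, adjusted p = 0.00208), with upper-quartile factors (adjusted p = 0.0248), without scaling factors (0.00616), without the filter on low counts (0.0306), and by DESeq2 (0.0257) and limma voom (0.044).

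Gzmc, a rodent granzyme next to Gzmb, was a little lower in TGFb than in Ctrl and in SIS3_TGFb than in TGFb. It was found at 5899, 5611 and 5373 CPM in Ctrl replicates 1, 2 and 3, 4796, 4966 and 5461 CPM in the TGFb replicates and 4471, 4613 and 4443 CPM in the SIS3_TGFb replicates. TGFb replicate 3 lay within the Ctrl range, and the SIS3_TGFb libraries lay below all others. The log2 changes were -0.15 ± 0.0478 (SE), adjusted p = 0.0238 in TGFb versus Ctrl, -0.17 ± 0.0478 (SE), adjusted p = 0.00967 in SIS3_TGFb versus TGFb and -0.32 ± 0.0479 (SE), adjusted p = 3.71e-05 in SIS3_TGFb versus Ctrl. The first lost its call without Ctrl replicate 1 (adjusted p = 0.118), Ctrl replicate 2 (0.054), TGFb replicate 1 (0.117) or TGFb replicate 2 (0.0892), and with the libraries of these groups alone (0.0552). The second lost it without scaling factors (0.081).

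Gzmg, the most abundant member, did not pass with TGF-β1 and fell with SIS3. Its values were 21380.4, 21715 and 19670.0 CPM in Ctrl replicates 1, 2 and 3, 20131, 20705 and 23391 CPM in the TGFb replicates and 18561, 18105 and 16857 CPM in the SIS3_TGFb replicates. Ctrl and TGFb libraries overlapped, and every SIS3_TGFb library lay below both groups. TGFb versus Ctrl gave 0.03 ± 0.0567 (SE), adjusted p = 0.698, with an interval of -0.09 to 0.15 and a sign that turned with upper-quartile factors, without Ctrl replicate 3 and without TGFb replicate 3. SIS3_TGFb versus TGFb gave -0.26 ± 0.0567 (SE), adjusted p = 0.00162, and SIS3_TGFb versus Ctrl -0.23 ± 0.0567 (SE), adjusted p = 0.00287.

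Gzmf passed the test only in SIS3_TGFb versus Ctrl. It measured 8139.8, 8009.9 and 7079 CPM in Ctrl replicates 1, 2 and 3, 7335, 7255 and 7803 CPM in the TGFb replicates and 7202, 6991 and 6431 CPM in the SIS3_TGFb replicates. Ctrl libraries overlapped those of both other groups, and the SIS3_TGFb libraries lay below the TGFb ones. TGFb versus Ctrl gave -0.05 ± 0.0544 (SE), adjusted p = 0.499. SIS3_TGFb versus TGFb gave -0.12 ± 0.0544 (SE), adjusted p = 0.0935, which passed without the filter on low counts (adjusted p = 0.0427), by DESeq2 (0.0303) and without Ctrl replicate 3 (0.0458). SIS3_TGFb versus Ctrl gave -0.17 ± 0.0544 (SE), adjusted p = 0.0145, and lost its call without Ctrl replicate 1 (0.077), Ctrl replicate 2 (0.0615) or SIS3_TGFb replicate 3 (0.0694). Without scaling factors it was -0.11. Without TGFb replicate 3, TGFb versus Ctrl and SIS3_TGFb versus TGFb both gave -0.09, and neither passed.

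Of the members in the cluster, Gzmb rose in SIS3_TGFb versus TGFb, and Gzme, at the other end, had the largest fall. In SIS3_TGFb versus TGFb the log2 changes from Gzmb to Gzme were 0.39, -0.17 (Gzmc), -0.12 (Gzmf), -0.26 (Gzmg), -0.45 (Gzmd) and -0.81. Gzmn, between Gzmf and Gzmg, gave -0.18 there. Beyond Gzme, Ctsg gave -0.12 and Mcpt8 -0.23, and of these neighbours only Mcpt8 passed. In TGFb versus Ctrl both ends were lowest, at -0.56 for Gzmb and -0.45 for Gzme, with -0.15, -0.05, 0.03 and -0.12 between them. Gzmd and Gzme lie next to each other, share most of their promoter letters as printed above, and had 95% intervals that did not overlap in any of the comparisons. No trend with position was tested.

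**Figure D3:**
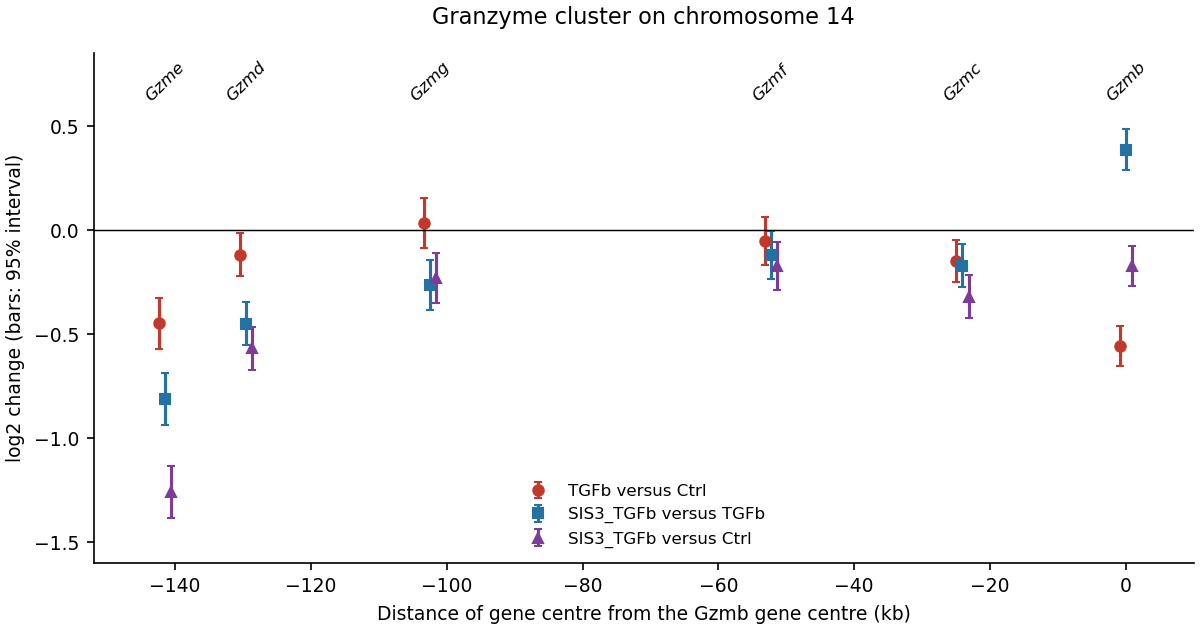
The log2 change with its 95% interval (y axis) of the 6 members on chromosome 14 against the distance of each gene's centre from that of Gzmb in kb (x axis), for the 3 comparisons. Gzmb lies above 0 in SIS3_TGFb versus TGFb (0.39) and Gzme, at the far end, lies lowest (-0.81).

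Transcripts of Gzmc to Gzmg were 68.8% to 90.0% identical, which bears on how reads were divided among them. Of all stretches of 31 bases, 42.1% of those of Gzme also occurred in another gene's transcript, 38.2% of those of Gzmd, 33.8% of Gzmg, 22.8% of Gzmf, 14.8% of Gzmc and 1.35% of Gzmb. Of stretches of 100 bases, the length of 1 read, only 2 were shared, between Gzmd and Gzmg. Gzme was written with a fraction in 5 of its 6 values below 100000, the form that an estimate dividing reads between genes gives, while Gzmc had whole values in all 9 libraries. The table writes no decimals at or above 100000, where all values of Gzmd, Gzmf and Gzmg lie. The division between these 5 genes is therefore uncertain. Their summed counts, which do not depend on how reads were divided among these 5, gave -0.09 ± 0.0516 (SE), adjusted p = 0.196 in TGFb versus Ctrl, -0.33 ± 0.0517 (SE), adjusted p = 1.09e-04 in SIS3_TGFb versus TGFb and -0.42 ± 0.0517 (SE), adjusted p = 4.58e-06 in SIS3_TGFb versus Ctrl.

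The make-up of the granzyme pool differed between the groups. Of all granzyme counts, Gzmb made up 11.7% ± 0.435 in Ctrl (SD, n = 3), 8.78% ± 0.244 in TGFb and 13.6% ± 0.694 in SIS3_TGFb. Gzme made up 9.63% ± 0.0996, 7.78% ± 0.259 and 5.25% ± 0.189 in the same order. The ranges of the 3 groups did not overlap for either gene. The share of Gzmg was 29.6% ± 0.384 in Ctrl, 33.4% ± 0.412 in TGFb and 32.9% ± 0.607 in SIS3_TGFb, and that of Gzmd 27.1% ± 0.465, 27.5% ± 0.0835 and 23.8% ± 0.357. A share also depends on the levels of the other granzymes. The log2 change of Gzmg itself was 0.03 in TGFb versus Ctrl, which did not pass, and -0.23 in SIS3_TGFb versus Ctrl. Shares of counts favour long transcripts, and per transcript length Gzmb made up 7.90%, 5.85% and 9.20%. The count of Gzmb over that of Prf1 was 1.31 to 1.35 in Ctrl, 1.12 to 1.20 in TGFb and 1.50 to 1.68 in SIS3_TGFb libraries. None of these ranges overlapped, and each of the 3 comparisons had p = 0.1 in an exact two-sided permutation test, the smallest that 3 against 3 libraries allow (0.12 adjusted over 6 ratio comparisons). Gzma over Gzmb was 0.251 to 0.275 in Ctrl, 0.325 to 0.353 in TGFb and 0.251 to 0.269 in SIS3_TGFb, with p = 0.5 between SIS3_TGFb and Ctrl in the same permutation test. Gzme over Gzmf averaged 0.881, 0.668 and 0.415 across the groups, and Gzmd over Gzme 2.81, 3.54 and 4.54.

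**Figure D4:**
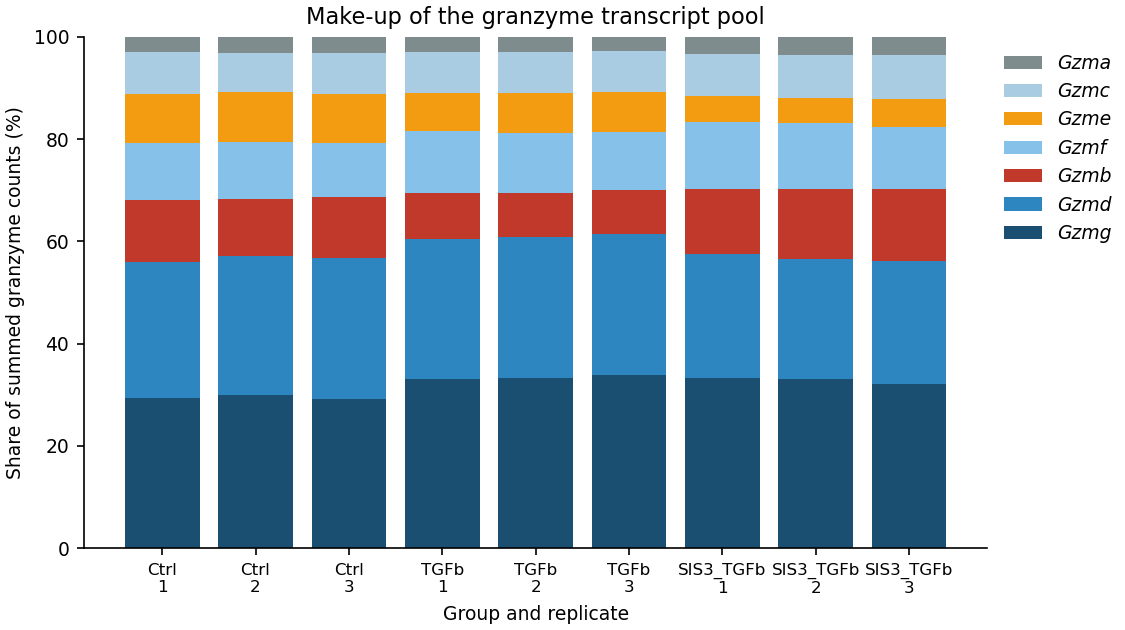
Share of the summed granzyme counts (y axis, %) taken by each granzyme in each library (x axis, group and replicate). Gzmk and Gzmm are too scarce to see, the Gzmb band narrows from about 11.7% in Ctrl to 8.78% in TGFb and widens to 13.6% in SIS3_TGFb, and the Gzme band narrows from 9.63% to 5.25%.

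Genes that process, hold, inhibit and release granzymes passed the test, in either direction, about as often as all genes did. In both comparisons of SIS3_TGFb most of those that passed fell. Of 45 such genes 44 were tested. With TGF-β1, 8 rose and 9 fell (38.6%, against 34.3% of all genes), with a median of -0.03. Of all genes 17.9% rose and 16.4% fell there. Serpinb9, the serpin that blocks granzyme B inside the cells that make it, dropped from 929 ± 29.5 CPM in Ctrl (SD, n = 3) to 420.5 ± 14.5 in TGFb (log2 change -1.14 ± 0.0404 (SE), adjusted p = 3.73e-12) and 346 ± 13.8 in SIS3_TGFb (-0.28 ± 0.0406 (SE), adjusted p = 4.98e-05 against TGFb). Serpinb9 fell in both of these comparisons, whereas Gzmb was lower in TGFb than in Ctrl and higher in SIS3_TGFb than in TGFb. The related serpins Serpinb9b (-0.89) and Serpinb6b (-0.73) also fell with TGF-β1, and so did Ctsc (-0.33), the cathepsin that trims granzymes to their active form. Srgn, the proteoglycan core that packs granzymes, rose from 1028 ± 28.3 to 1361 ± 16.2 CPM (0.40 ± 0.0366 (SE), adjusted p = 2.71e-07). Rab27a (0.41), which docks granules at the membrane, Igf2r (0.46), a mannose 6-phosphate receptor of granule sorting, and Vamp2 (0.40), a fusion protein, rose as well.

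In SIS3_TGFb versus TGFb, 3 genes of this list rose and 18 fell (47.7%, against 41.8% of all genes, median -0.09). Of all genes 21.2% rose and 20.6% fell there. Rab27a was lower by 0.34, at 295 ± 3.92 CPM, against 281 ± 4.52 in Ctrl. Serpinb6b (-0.33), Serpinb6a (-0.31) and Ctsc (-0.31) fell. Serpinb9b (0.24), the vesicle protein Rab11fip3 (0.47) and the fusion protein Stx11 (0.13) rose. For Serpinb9b the libraries of these groups overlapped, with SIS3_TGFb replicate 3 at 498 CPM against 466 to 548 CPM in TGFb. The count of 3 risen genes was 8 without scaling factors and 1 by DESeq2, without SIS3_TGFb replicate 1 or without SIS3_TGFb replicate 2. Against Ctrl, 7 rose and 17 fell (54.5%, against 53.9%, median -0.09), where 29% of all genes rose and 24.9% fell. Serpinb9 (-1.43), Serpinb6b (-1.06), Ctsc (-0.64) and the chaperone Calr (-0.42) were lower, and Rab11fip3 (1.05), Igf2r (0.36), Vamp2 (0.35) and Srgn (0.28) higher. The Serpinb9 and Serpinb6 genes belong to families of close copies. Expected counts of Serpinb9, Serpinb9b and Serpinb6b were whole in all 9 libraries, and those of Serpinb6a whole or nearly so (6844.01 in Ctrl replicate 1). Stretches shared among their transcripts were not counted, and the division of reads among them was not tested.

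**Figure D5:**
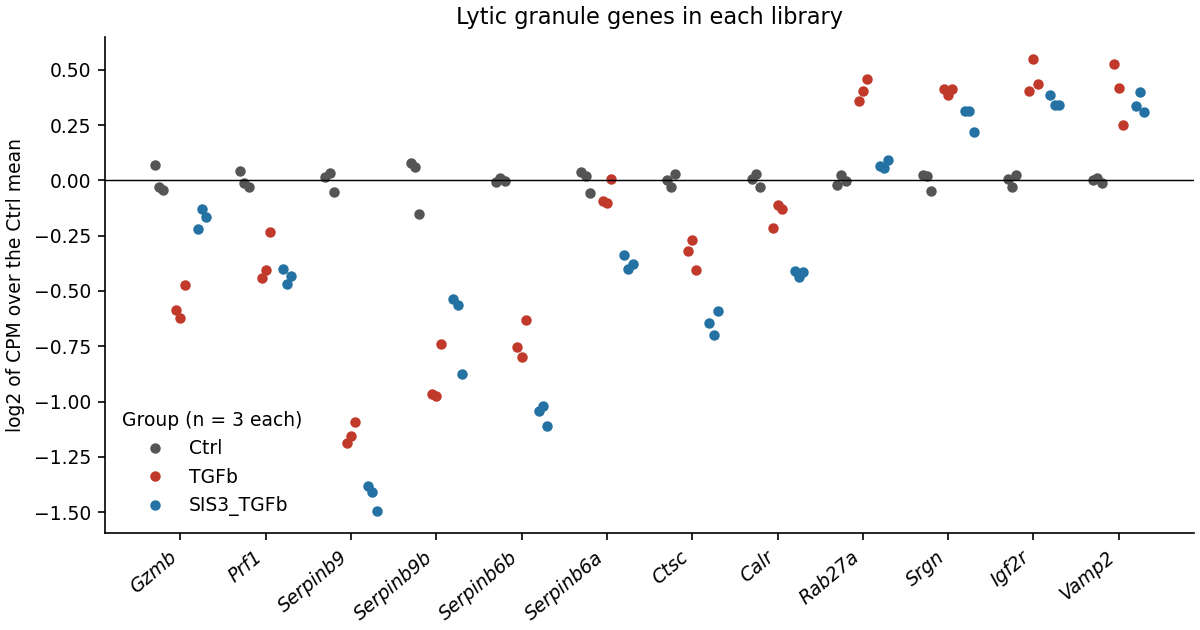
The log2 ratio of each library's CPM to the Ctrl mean (y axis) for Gzmb, Prf1 and 10 lytic granule genes (x axis), with replicates 1 to 3 from left to right. Serpinb9 is lower in TGFb than in Ctrl and lowest in SIS3_TGFb. Gzmb is lowest in TGFb, Rab27a is highest in TGFb, and Srgn stays above Ctrl in both treated groups.

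Genes known to act on granzyme and perforin transcription split in each comparison. Of 44 tested, 10 rose and 14 fell with TGF-β1, 12 rose and 13 fell in SIS3_TGFb versus TGFb, and 12 rose and 15 fell in SIS3_TGFb versus Ctrl (medians -0.08, 0.04 and -0.05). The shares that passed were 54.5%, 56.8% and 61.4%, against 34.3%, 41.8% and 53.9% of all genes. The list was chosen with earlier results of these data known, so its larger shares are no independent result. The second rise count was 7 by DESeq2, and the third was 19 without scaling factors. Runx3 rose from 237 ± 15.1 to 426 ± 8.04 CPM with TGF-β1 (0.84 ± 0.0474 (SE), adjusted p = 8.95e-10), as did its partner Cbfb (0.43), and Runx3 was 447 ± 22.9 CPM in SIS3_TGFb. The Notch partner Rbpj (1.03) and the IL-2 receptor α gene Il2ra (0.51) rose too. Prdm1, which encodes Blimp-1, fell from 105 ± 3.75 to 51.5 ± 5.28 CPM (-1.03 ± 0.0612 (SE), adjusted p = 1.67e-09), and Irf4 (-2.09), Ets1 (-0.55) and Id2 (-0.42) fell as well. Irf4 was scarce, at 4.41 ± 0.727 CPM in Ctrl and 1.02 ± 0.137 in TGFb.

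The T-box factors parted with SIS3. Eomes was 544 ± 10.7 CPM in Ctrl, 517 ± 2.61 in TGFb and 367 ± 7.14 in SIS3_TGFb, and fell in SIS3_TGFb versus TGFb (-0.49 ± 0.0327 (SE), adjusted p = 1.59e-08). Tbx21 rose there (0.26 ± 0.0619 (SE), adjusted p = 0.00331), from 23.2 ± 1.1 to 27.8 ± 0.154 CPM. Bach2 (0.58), Ikzf2 (0.58) and Stat3 (0.25) also rose, and Il2ra (-0.56), Ets1 (-0.47) and the AP-1 subunit Junb (-0.41) fell. Against Ctrl, Rbpj (1.07), Runx3 (0.91), Foxo1 (0.46) and Cbfb (0.34) were higher in SIS3_TGFb, and Prdm1 (-1.40), Ets1 (-1.02), Eomes (-0.57) and the IL-2 and IL-15 receptor β gene Il2rb (-0.37) lower.

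Known targets of TGF-β are given for comparison. Pmepa1 changed by 7.69 in TGFb versus Ctrl and -0.18 in SIS3_TGFb versus TGFb, Smad7 by 1.92 and 0.25, and Skil by 1.33 and 0.05 (the last did not pass). Ncr1, the NK receptor NKp46, changed by -1.93 in TGFb versus Ctrl and 0.97 in SIS3_TGFb versus TGFb, with the same signs as Gzmb.

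Other granule proteases, most of them serine proteases of mast cells, basophils and neutrophils, were scarcer than the main granzymes, and 6 of 15 in the table were tested. With TGF-β1, 3 fell and 0 rose (50%, against 34.3% of all genes). They were Cpa3 (-0.73), Mcpt8 (-0.20) and Ctsg (-0.19). In SIS3_TGFb versus TGFb, 2 fell and 0 rose (33.3%, against 41.8% of all genes), Cpa3 (-0.43) and Mcpt8 (-0.23). Cpa3 is a metallocarboxypeptidase of mast cells and not a serine protease. Without TGFb replicate 1, 5 fell in the first comparison and 2 rose in the second, and 1 rose without SIS3_TGFb replicate 3 or without scaling factors. Gzmn, the granzyme between Gzmf and Gzmg, was at 11.6 ± 1.2 CPM in Ctrl, 10.3 ± 1.86 in TGFb and 9.03 ± 1.03 in SIS3_TGFb, and passed only in SIS3_TGFb versus Ctrl (-0.36 ± 0.132 (SE), adjusted p = 0.0317). There Cpa3 (-1.16), Mcpt8 (-0.43) and Ctsg (-0.31) fell too, so that 4 fell and 0 rose (66.7%, against 53.9% of all genes). Cma1 was at 121 ± 6.6, 106 ± 8.82 and 120.3 ± 13.9 CPM and Prss34 at 31.4 ± 6.06, 19.6 ± 15.4 and 25.7 ± 2.48, and neither passed in any comparison.

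Of 25 genes nearest to the members on either side, 17 were tested. In TGFb versus Ctrl 3 of them rose and 5 fell, in SIS3_TGFb versus TGFb 2 rose and 6 fell, and in SIS3_TGFb versus Ctrl 4 rose and 8 fell. The shares that passed were 47.1%, 47.1% and 70.6%, against 34.3%, 41.8% and 53.9% of all genes. Over the 9 libraries, the genes with the pattern most like Prf1, each centred on its own mean log2 CPM, were Gatad2a, Adam8 and Larp4 (root mean square differences of 0.0289, 0.0416 and 0.0441 log2 units among 6232 genes). Those nearest to Gzmc were Pi4k2a, Car2 and Gga1 (root mean square differences of 0.037, 0.0376 and 0.0376 log2 units among 7649 genes).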

How the data were processed

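Poly-A RNA of 9 libraries had been sequenced in 100 bp pairs on the DNBseq platform, per the labels' protocols. The authors deposited expected counts per gene. The unit was read from the values, of which 10.2% to 11.1% per library are not whole. Per the submitters' processing notes, builds GRCm38 and mm10 and the tools RSEM, Bowtie2, HISAT2, StringTie, Cufflinks and DESeq2 were involved, with no role or version stated. Counts were rounded and filtered with filterByExpr (minimum count 10, minimum total 15), which left 12212 genes. They were scaled by TMM and fitted over all 9 libraries with the quasi-likelihood test of edgeR 4.0.16 (R 4.3.3), without a replicate block, and tested on simulated data. Two-sided p-values were adjusted over all genes tested (Benjamini-Hochberg). The common biological coefficient of variation was 4.53%. Alternatives used other scalings, no filter, DESeq2 1.42.0, limma 3.58.1, a replicate block and each library left out. Members and lists were chosen with earlier results of these data known. All members are named. From the granule and regulator lists, up to 4 genes per direction with the smallest p are named, with every tested member of the protease list and 5 genes fixed by name. Likeness was taken over genes of mean log2 CPM of at least 3 and an SD of at least that of the member divided by 2, leaving out numbered models, Rik symbols and pseudogenes. The genes most like Gzmb and Gzma are not reported here. A few further values of named genes (Runx3, Tbx21, Eomes, Rab27a) were added for contrast. Protein sequences were not used here.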

Additional observations from a re-analysis of the deposited data

How the results depend on the processing

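Of 157 values of the 9 tested members under alternatives in each comparison, 142 in TGFb versus Ctrl, 147 in SIS3_TGFb versus TGFb and 154 in SIS3_TGFb versus Ctrl kept their direction and their side of the threshold. In each, Gzmb, Gzme and Serpinb9 kept theirs under every alternative run. Signs turned for 3 changes that did not pass, and the cause was not tested. Gzmg in TGFb versus Ctrl was -0.00771 with upper-quartile factors, and -0.0375 to 0.0757 with 1 library left out in turn. Gzma in SIS3_TGFb versus TGFb was -0.00511 with DESeq2 size factors, -0.00507 by DESeq2 and -0.00845 to 0.0229 with 1 library left out, and Prf1 was 0.00787 without scaling factors.

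Without scaling factors, SIS3_TGFb versus TGFb gave 2 members that rose, with 8 risen genes in the granule list and 1 in the protease list, and SIS3_TGFb versus Ctrl gave 19 risen regulators. By DESeq2, SIS3_TGFb versus TGFb gave 1 risen granule gene and 7 risen regulators. The cause was not tested. With 1 library left out in turn, the members that fell numbered 4 to 6 in TGFb versus Ctrl, 4 to 5 in SIS3_TGFb versus TGFb and 8 to 9 in SIS3_TGFb versus Ctrl. Genes risen in SIS3_TGFb versus TGFb then numbered 1 to 4 in the granule list and 0 to 2 in the protease list, and genes fallen in TGFb versus Ctrl 2 to 5 in the protease list.

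Correlations of deviations from the group means were -0.20 to 0.15 for the same replicate number and -0.21 to 0.21 for different numbers. In SIS3_TGFb versus Ctrl the same numbers gave 0.14, -0.014 and 0.147. With 3 libraries per group these values cannot tell whether equal numbers mark a shared mouse, culture or day. A replicate block gave 3942 calls against 4190 in TGFb versus Ctrl, 4803 against 5104 in SIS3_TGFb versus TGFb and 6346 against 6585 in SIS3_TGFb versus Ctrl. Under it Gzmc in TGFb versus Ctrl had an adjusted p of 0.055. A comparison of protein sequences was planned and not run. At 1 to 7 counts per library, no change of Gzmm was detectable.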
